A study of Mus musculus with 18 samples.

Results

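The 10 genes Npy, Mgll, Mxd1, Eno2, Gm26588, Prickle2, Bhlhe40, Igf2bp3, Klra3 and Gpr162 lie on mouse chromosome 6 and were higher in bone marrow-derived macrophages (BMM) of Nur77-KO mice than in those of WT mice. They were chosen from these arrays for that difference. Each has a probe that differed between the genotypes by at least 1.4-fold, at an unadjusted p under 0.05, in 2 or 3 of the 3 states studied, and other chromosome 6 genes that do so were not taken. Their genotype values are therefore a description and carry no test. The arrays hold 22 probes for these genes. Of these, 19 were detected on at least 1 array, and 3 (2 for Prickle2 and 1 for Igf2bp3) were detected on 0 arrays. They belong to 23007 detected probes that represent 12417 genes, 632 of them on chromosome 6, and the brightest probe stood for its gene.

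RNA was hybridised to 18 Illumina bead arrays, 3 for each of 6 groups on the C57BL/6 background: WT and Nur77-KO BMM, each unstimulated (0 h), with LPS (100 ng/ml, 8 h) or with IL-4 (50 ng/ml, 8 h). BMM are grown from marrow in medium conditioned by L929 cells. LPS is a bacterial wall component that drives an inflammatory response, and IL-4 is a cytokine that drives an alternative one. Marrow was taken in batches, each from several mice of either genotype, and how many batches the arrays used is not stated. The labels do not tie arrays to mice or batches, so a p-value speaks for the spread of the arrays alone, which may be technical. The unstimulated arrays were not kept for 8 h, so stimulus and time in culture cannot be told apart. The slides used below were inferred from the running sample numbers, in blocks of 6, as no label names a slide. Nur77-KO mice carry a germline disruption of Nr4a1, which encodes the nuclear receptor Nur77 and lies on another chromosome. The Nr4a1 probe was detected on 0 of the 18 arrays (log2 4.54 to 5.38), so it does not check the genotype labels.

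The genes do not form a pathway. Npy encodes neuropeptide Y, a peptide transmitter of sympathetic and central neurons that acts through G protein-coupled receptors. Mgll encodes monoacylglycerol lipase, which breaks down the main endocannabinoid lipid and releases arachidonic acid. Mxd1 and Bhlhe40 encode basic helix-loop-helix transcriptional repressors; the first competes with MYC for the partner MAX, and the second acts in the circadian clock. Eno2 encodes the neuronal form of the glycolytic enzyme enolase, and Igf2bp3 an RNA-binding protein named for its binding to Igf2 mRNA. Prickle2 is a planar cell polarity gene, Klra3 a lectin-like receptor of the Ly49 family known from natural killer cells, and Gpr162 an orphan receptor. Gm26588 is annotated as a long non-coding RNA.

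On GRCm38.p6 the genes fell into several stretches of chromosome 6. Igf2bp3 (chr6:49085218-49215469, minus strand) and Npy (chr6:49822710-49829507, plus strand) were 0.607 Mb apart. Mxd1 (chr6:86647044-86669234) lay 36.8 Mb further on. Gm26588 (chr6:88716423-88742591, minus strand) and Mgll (chr6:88724412-88828360, plus strand) overlapped by 18180 bases on opposite strands, and Prickle2 (chr6:92370891-92706334) was 3.54 Mb beyond them. Bhlhe40 (chr6:108660629-108666925) stood alone, 16 Mb from Prickle2 and 16.1 Mb from the next gene. Eno2 (chr6:124760053-124769673) and Gpr162 (chr6:124858444-124864195) were 88.8 kb apart, and Klra3 (chr6:130323289-130337626) lay 5.46 Mb past them.

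Promoter sequence was taken from RefSeq (GRCm38.p6) as the 250 bases before an annotated start, with 12 such windows for 8 of the genes and none for Bhlhe40 and Gpr162. Shown are the windows of the 2 pairs of neighbours, Igf2bp3 with Npy and Mgll with Gm26588, 5′ to 3′ on the strand of the gene, with the E-box CACGTG in capitals. This is the letter string that MYC, MAX and MXD proteins, and also Bhlhe40, are known to bind. The windows are chr6:49214955-49215204 (minus strand) for Igf2bp3, chr6:49822460-49822709 (plus) for Npy, chr6:88724162-88724411 (plus) for Mgll and chr6:88742592-88742841 (minus) for Gm26588.
Igf2bp3: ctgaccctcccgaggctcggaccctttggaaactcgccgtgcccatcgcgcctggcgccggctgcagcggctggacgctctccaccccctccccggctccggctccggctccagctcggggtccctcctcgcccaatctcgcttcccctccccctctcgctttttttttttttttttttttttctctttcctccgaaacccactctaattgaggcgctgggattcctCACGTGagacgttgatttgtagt
Npy: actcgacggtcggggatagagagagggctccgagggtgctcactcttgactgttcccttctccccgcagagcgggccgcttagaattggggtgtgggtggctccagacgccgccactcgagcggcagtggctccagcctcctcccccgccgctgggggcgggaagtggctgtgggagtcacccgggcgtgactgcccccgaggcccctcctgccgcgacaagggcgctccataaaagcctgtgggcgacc
Mgll: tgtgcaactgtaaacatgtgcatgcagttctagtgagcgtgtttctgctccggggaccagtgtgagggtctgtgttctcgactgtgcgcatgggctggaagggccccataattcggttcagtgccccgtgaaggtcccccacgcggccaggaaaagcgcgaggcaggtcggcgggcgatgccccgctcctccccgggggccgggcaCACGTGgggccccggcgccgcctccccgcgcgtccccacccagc
Gm26588: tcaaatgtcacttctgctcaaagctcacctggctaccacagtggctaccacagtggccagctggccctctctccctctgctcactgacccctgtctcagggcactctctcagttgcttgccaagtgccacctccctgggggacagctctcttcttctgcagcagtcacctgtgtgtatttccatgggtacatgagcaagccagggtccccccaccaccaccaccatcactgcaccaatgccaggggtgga
The E-box began 23 bases before the annotated start used for Igf2bp3 and 44 before that of Mgll. The Igf2bp3 window lies inside the bounds given for the gene, so its start is not the outermost one. The E-box was in 2 of the 12 windows against 6.02% of 32851 windows of all genes. This string was added after the data were seen. The letters AAAGGTCA, to which Nur77 binds as a monomer, and their core AGGTCA, searched on both strands, were in 0 of the 12 windows against 1.34% and 14% of all windows (each AAAGGTCA also counts as an AGGTCA). A match or its absence says only which letters a window holds.

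Some arrays stood apart from their group. On replicate 1 of the Nur77-KO LPS arrays and replicate 1 of the Nur77-KO IL-4 arrays, the Y-linked gene Eif2s3y read 4.53 and 4.59, while the other 7 Nur77-KO arrays lay at 8.91 to 9.68 and the WT arrays at 4.45 to 4.76. Xist read 10.87 and 11.42 there, while the other Nur77-KO arrays lay at 8.93 to 9.89 and the WT arrays at 10.45 to 11.44. The mean of 8 detected stromal genes was 5.34 and 5.44 on the same arrays, with 2 of the 8 detected on each, while the rest of the Nur77-KO LPS arrays had 8.17 to 8.47 and the rest of the Nur77-KO IL-4 arrays 7.84 to 8.09. WT LPS replicate 3 also had a low stromal mean (5.49, against 7.06 on the highest array of its group). WT IL-4 replicate 1 did too (5.17 against 6.56). Below, the arrays that stand apart are the Nur77-KO ones alone, so leaving them out acts on 1 genotype only. Among unstimulated arrays all Nur77-KO arrays had high and all WT arrays low Eif2s3y, so Y-linked level and genotype cannot be told apart there. That stromal mean was also higher without stimulation in Nur77-KO (8.44 to 8.62, 7 of 8 on every array) than in WT (6.76 to 6.94, 6 of 8). A mean over 8 detected neutrophil genes was 7.44 to 7.56 against 5.71 to 6.11, with 8 and 3 of the 8 on every array. On the arrays that stand apart this neutrophil mean was 8.86 with LPS and 8.57 with IL-4. The other Nur77-KO arrays had 7.71 to 7.85 and 7.29 to 7.57, and the WT arrays 7.40 to 8.37 and 6.25 to 7.43. Of 9 tested macrophage genes all 9 were detected on every array of every group. The part of other cells in the values below was not tested, and in bulk RNA more cells of a type cannot be told apart from more RNA per cell.

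Without stimulation, every Nur77-KO array lay above every WT array for 10 of the 10 genes, and 10.1% of all probes did so. With LPS the same held for 8 genes, not for Prickle2 and Gpr162, against 6.3% of all probes. With IL-4 it held for 6, not for Npy, Gm26588, Bhlhe40 and Klra3, against 3.95%. The median difference of the 10 genes was 0.87 log2 units unstimulated, 0.82 with LPS and 0.84 with IL-4, where the median of all probes was 0.00 each time. It was 0.84 with LPS and 0.76 with IL-4 once the arrays that stand apart were left out. Without WT LPS replicate 3 alone it was 1.14 with LPS, and without WT IL-4 replicate 1 alone it was 0.97 with IL-4. The thresholds of the choice were passed with a higher Nur77-KO mean by 9, 9 and 7 of the 10 genes in the respective states (2.43%, 3.46% and 1.92% of all probes), and nothing is read from this, since it is the choice itself.

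**Figure D1:**
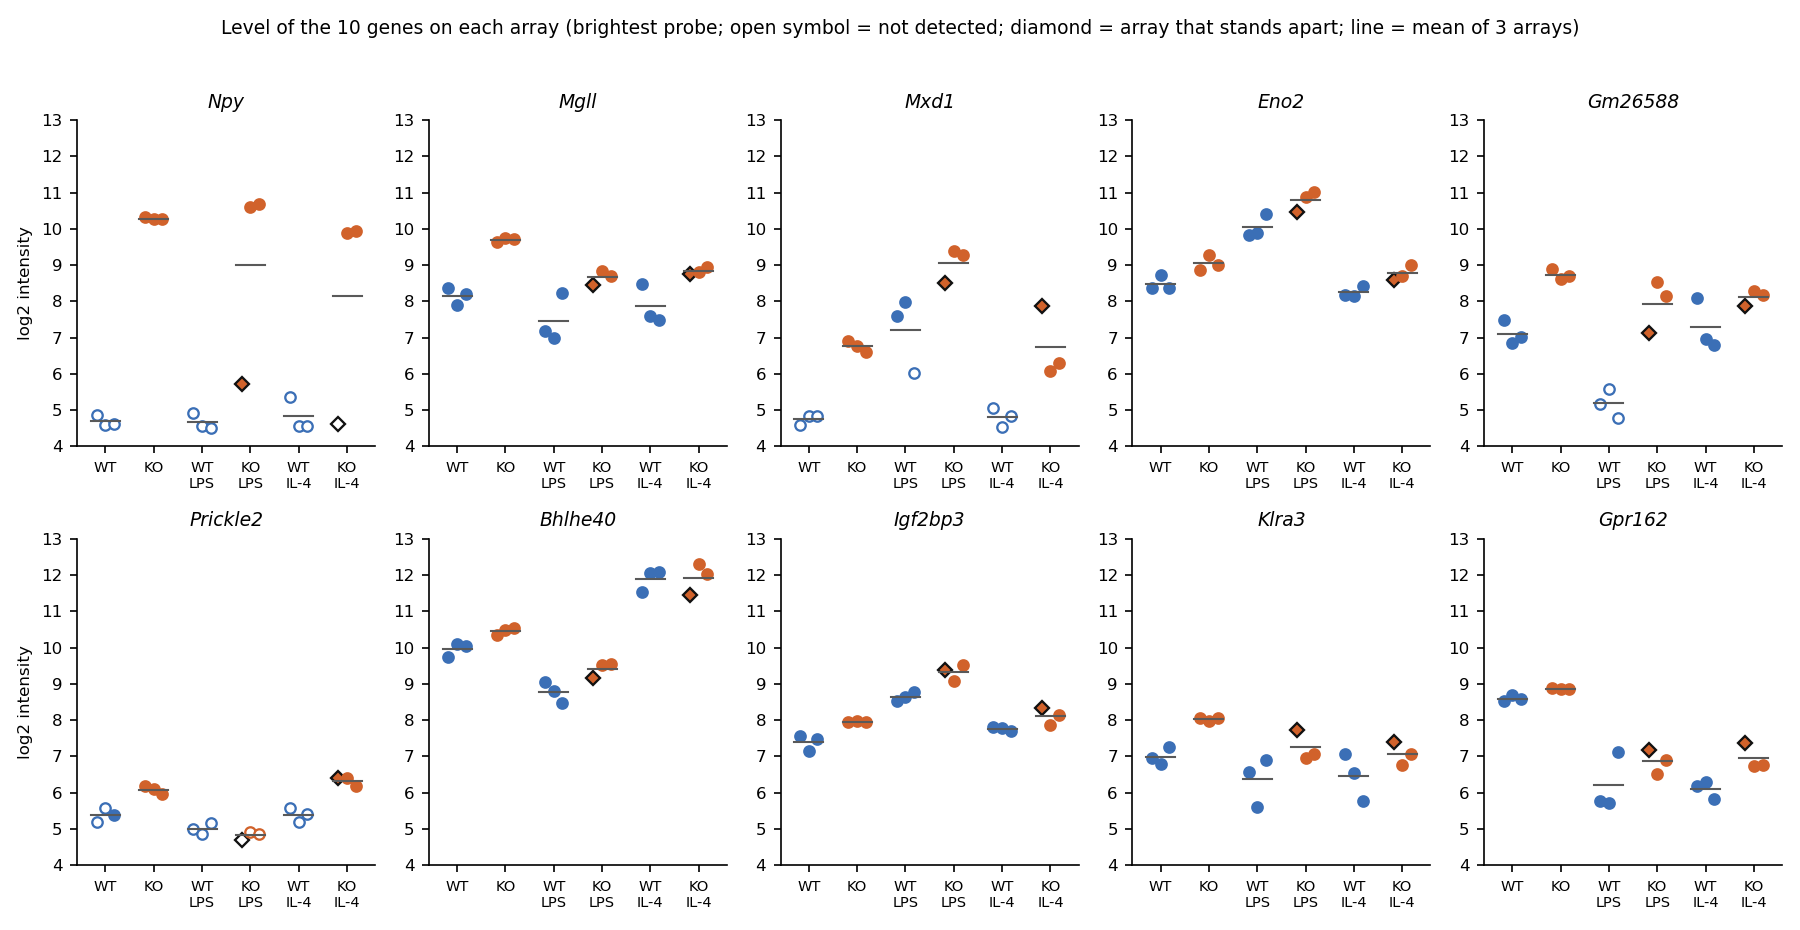
Normalised log2 intensity of the 10 genes on each of the 18 arrays, by group (blue WT, orange Nur77-KO), with open symbols for arrays on which the probe was not detected, diamonds for the arrays that stand apart and lines for the means of 3 arrays. Npy has 3 high unstimulated Nur77-KO arrays (10.26 to 10.33), but 1 low array in each of the other Nur77-KO groups (5.72 and 4.61).

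Npy was the gene with the widest gap. In WT BMM it was not detected on any of the 9 arrays, which read 4.86, 4.59 and 4.63 unstimulated, 4.93, 4.57 and 4.52 with LPS, and 5.35, 4.56 and 4.57 with IL-4. In Nur77-KO BMM it read 10.33, 10.26 and 10.26 unstimulated. The LPS arrays of Nur77-KO read 5.72, 10.61 and 10.69, and the IL-4 arrays 4.61, 9.88 and 9.94. The low array of each trio was the one that stood apart in Eif2s3y, so in IL-4 the genotypes overlapped. The mean was 10.28 ± 0.04 in unstimulated Nur77-KO against 4.69 ± 0.15 in WT BMM (SD, n = 3), at least 27.5-fold higher. Such a bound sets an undetected group at the lowest detected signal of its arrays, or at its own reading where that was higher. With LPS the means differed by 4.33 (at least 9.26-fold) and with IL-4 by 3.31 (at least 6.16-fold), with an SE of 1.21 each, and by 5.98 and 5.08 without the low arrays. Leaving out Nur77-KO replicate 2 or 3 instead gave 3.53 and 3.49 with LPS and 2.45 and 2.42 with IL-4.

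No response of Npy to a stimulus passed the test. In Nur77-KO BMM the LPS mean was 9.01 ± 2.85 and the IL-4 mean 8.14 ± 3.06 (SD, n = 3), −1.28 (limma adjusted p = 0.472) and −2.14 (adjusted p = 0.5) from unstimulated. Without the low arrays those differences were 0.37 and −0.37, so the first turned its sign. Without Nur77-KO replicate 2 or 3 they were −2.08 and −2.12 with LPS and −3.01 and −3.04 with IL-4. Across the 18 arrays the gene most like Npy, of 10069 candidates, was Eif2s3y, with a root mean square difference of 0.15 after each gene was scaled to SD units. Kng1 (0.28) and Col1a1 (0.42) followed. Kng1, which encodes kininogen, read 4.98 and 5.30 on the arrays that stand apart, near its WT means of 5.0 with LPS and 5.15 with IL-4.

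**Figure D2:**
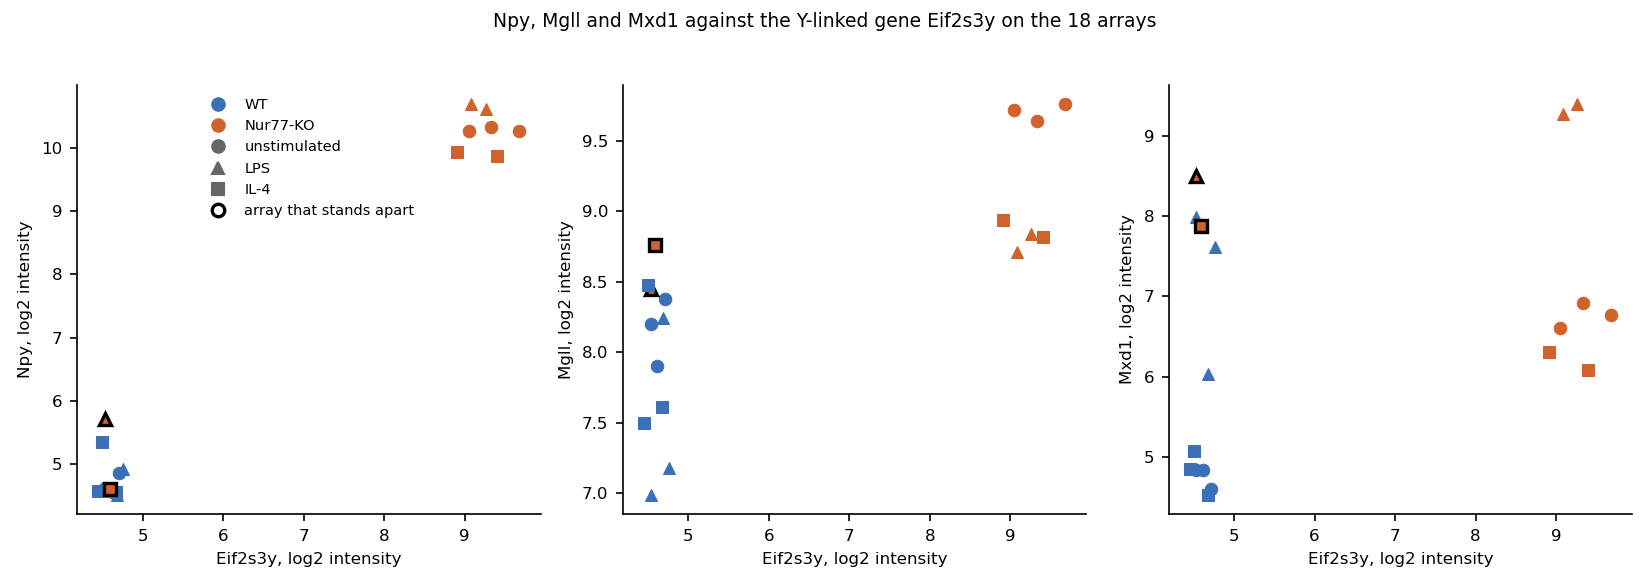
Log2 intensity of Npy, Mgll and Mxd1 (vertical axes) against that of the Y-linked Eif2s3y (horizontal axis) on the 18 arrays, coloured by genotype, with 1 symbol shape per state and black outlines for the arrays that stand apart. The Nur77-KO arrays with Eif2s3y at 4.53 and 4.59 have Npy at 5.72 and 4.61, and the other 7 have Npy between 9.88 and 10.69.

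The other genes were compared on the same arrays. On the LPS array that stood apart, 9 of the 10 genes were above every WT array (not Prickle2), and 7 of 10 were nearer the other Nur77-KO arrays than WT (not Npy, Eno2 and Bhlhe40). Prickle2 is among these 7, although it was not detected on any LPS array. On the IL-4 array that stood apart 7 were above every WT array (not Npy, Gm26588 and Bhlhe40), and 8 were nearer the other Nur77-KO arrays (not Npy and Bhlhe40). These arrays belong to the values that chose the genes, and the share of all probes was not counted, so the counts are a description.

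Mgll, the lipid enzyme, was higher in Nur77-KO BMM in all 3 states, with no overlap by its brightest probe. WT arrays read 8.38, 7.90 and 8.20 unstimulated, and Nur77-KO arrays 9.64, 9.76 and 9.72. With LPS the WT arrays read 7.18, 6.99 and 8.24, and the Nur77-KO arrays 8.45, 8.84 and 8.71. With IL-4 the readings were 8.48, 7.61 and 7.5 in WT and 8.76, 8.82 and 8.94 in Nur77-KO. The highest WT array stayed below the lowest Nur77-KO array each time. With LPS and IL-4 the highest WT arrays (8.24 and 8.48) were those with a low stromal mean. The lowest Nur77-KO arrays (8.45 and 8.76) were those that stood apart, so between these arrays the gap was narrow. The differences were 1.55 (2.92-fold), 1.20 (2.30-fold) and 0.98 (1.97-fold), SE 0.29. Both further Mgll probes, chosen with it, also had a higher mean in Nur77-KO in each state, by 0.46 to 1.50. The genotypes overlapped for the brighter of them with LPS (lowest Nur77-KO array 7.49, highest WT array 7.56). For the dimmer they overlapped with IL-4 (6.31 against 6.74).

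LPS lowered Mgll in Nur77-KO BMM by a factor of 2.06 (log2 difference −1.04, limma adjusted p = 0.00956). In WT BMM the difference was −0.69 and missed the threshold (adjusted p = 0.0732), but it passed without WT LPS replicate 3 (−1.08, adjusted p = 0.00269) or without WT IL-4 replicate 1 (−0.69, adjusted p = 0.0385). With IL-4 the differences were −0.30 in WT (adjusted p = 0.702) and −0.87 in Nur77-KO BMM (adjusted p = 0.131, or 0.0342 without WT LPS replicate 3). The 3 probes were not uniform for LPS in WT, where the others gave 0.16 (adjusted p = 0.645) and −1.01 (adjusted p = 0.0458).

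Gm26588, the non-coding RNA that overlaps Mgll on the opposite strand, had a similar gap without stimulation. Whether its course with LPS differed from that of Mgll was not tested. Unstimulated WT arrays read 7.48, 6.84 and 7.02, and Nur77-KO arrays 8.90, 8.61 and 8.71, a difference of 1.62 (3.08-fold). With LPS it was not detected on any WT array (5.18, 5.59 and 4.79) but was detected on the Nur77-KO arrays (7.13, 8.53 and 8.15), at least 4.41-fold higher. With IL-4 WT read 8.09, 6.97 and 6.80 and Nur77-KO 7.86, 8.28 and 8.19. There the groups overlapped, through the first array of each, with a difference of 0.83 (SE 0.35). The fall with LPS in WT BMM passed the test, at least 2.49-fold (limma log2 difference −1.93, adjusted p = 0.000323). In Nur77-KO BMM the LPS difference was −0.80 (adjusted p = 0.0941), which passed without Nur77-KO LPS replicate 2 (−1.09, adjusted p = 0.0347) or WT IL-4 replicate 1 (−0.80, adjusted p = 0.0473). Whether the response differed between genotypes was not tested, because the genes were chosen on genotype. IL-4 gave 0.17 in WT (adjusted p = 0.891) and −0.62 in Nur77-KO BMM (adjusted p = 0.496). Which exons the Mgll and Gm26588 probes match was not examined.

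Mxd1, the MYC antagonist, was undetected in WT BMM until LPS was given. WT arrays read 4.60, 4.84 and 4.84 unstimulated and 5.07, 4.53 and 4.85 with IL-4, none detected, and Nur77-KO arrays 6.91, 6.77 and 6.60 and then 7.88, 6.08 and 6.30, all detected. With LPS the WT arrays read 7.61, 7.99 and 6.03, the last not detected, and the Nur77-KO arrays 8.50, 9.39 and 9.27. No state showed an overlap. The gap was at least 2.40-fold unstimulated, 3.59-fold with LPS (log2 1.85, or 1.26 without the undetected WT LPS replicate 3) and at least 2.36-fold with IL-4, where the log2 difference of 1.94 became 1.38 without the array that stood apart. LPS raised Mxd1 in both genotypes, at least 3.27-fold in WT BMM (limma log2 difference 2.45, adjusted p = 0.0004, and 3.04 without that replicate) and 4.89-fold in Nur77-KO BMM (2.29, adjusted p = 0.000803). IL-4 gave −0.01 in Nur77-KO BMM, and in WT Mxd1 was undetected with and without it.

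The second Mxd1 probe ran the other way with LPS. The dimmer second probe, detected on 6 arrays, read 6.55, 6.76 and 6.14 in WT and 5.17, 6.00 and 5.86 in Nur77-KO with LPS, so here Nur77-KO was the lower group (−0.80). It was undetected on all unstimulated WT arrays and on all IL-4 arrays. Its rise with LPS passed the test in WT (at least 1.97-fold, adjusted p = 6.54e-05) and not in Nur77-KO BMM (0.38, adjusted p = 0.256). The third probe was detected on 1 array, in WT with LPS.

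Bhlhe40, the clock-linked repressor, moved more with the stimuli than with genotype. Unstimulated arrays read 9.73, 10.10 and 10.05 in WT and 10.35, 10.48 and 10.55 in Nur77-KO. LPS arrays read 9.04, 8.81 and 8.47 in WT and 9.15, 9.52 and 9.56 in Nur77-KO. IL-4 arrays read 11.53, 12.07 and 12.09 in WT and 11.45, 12.31 and 12.02 in Nur77-KO, and here the genotypes overlapped. Nur77-KO minus WT was 0.50 (1.41-fold), 0.64 (1.55-fold) and 0.03, SE 0.23. The IL-4 value turned to −0.62 and −0.08 within the slides that held both genotypes and to −0.20 with the slide as a block, so it has no settled direction. Leaving out WT IL-4 replicate 1 or Nur77-KO IL-4 replicate 2 or 3 turned it as well (−0.15, −0.16 and −0.02).

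IL-4 raised Bhlhe40 3.83-fold in WT BMM (limma log2 difference 1.94, adjusted p = 5.21e-05) and 2.77-fold in Nur77-KO BMM (1.47, adjusted p = 0.000839). LPS lowered it 2.27-fold in WT (−1.19, adjusted p = 0.000539) and 2.06-fold in Nur77-KO BMM (−1.05, adjusted p = 0.00171). Under median in place of quantile normalization the IL-4 calls were lost (adjusted p = 0.408 and 0.518), as was the LPS call in WT (adjusted p = 0.12). Its pattern was most like that of Mrc1, the macrophage mannose receptor, with a root mean square difference of 0.20 over the 18 arrays, and of Pdia4 (0.23).

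Eno2, the neuronal enolase, was detected on all 18 arrays and rose with LPS from a level that was higher in Nur77-KO BMM. WT arrays read 8.37, 8.72 and 8.37 unstimulated, 9.84, 9.89 and 10.42 with LPS and 8.17, 8.15 and 8.42 with IL-4. Nur77-KO arrays read 8.86, 9.28 and 9.0, then 10.48, 10.89 and 11.03, then 8.60, 8.71 and 9.0. The genotypes did not overlap in any state, and the differences were 0.56 (1.47-fold), 0.75 (1.68-fold) and 0.52 (1.44-fold), SE 0.20. The rise with LPS was 2.96-fold in WT (limma adjusted p = 9.36e-06) and 3.37-fold in Nur77-KO BMM (adjusted p = 2.95e-06). IL-4 gave −0.24 (adjusted p = 0.645) and −0.28 (adjusted p = 0.663). Sgcb (0.25) and Pdpn (0.31) had the patterns most like it.

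Igf2bp3, the RNA-binding protein, also rose with LPS. In WT it read 7.55, 7.15 and 7.47 unstimulated, 8.52, 8.64 and 8.77 with LPS and 7.82, 7.77 and 7.71 with IL-4. In Nur77-KO it read 7.95, 7.97 and 7.95, then 9.39, 9.07 and 9.51, then 8.34, 7.87 and 8.13. By the brightest probe no state overlapped, although in IL-4 the lowest Nur77-KO and the highest WT array were close. The differences were 0.57 (1.48-fold), 0.68 (1.6-fold) and 0.35 (1.27-fold), SE 0.16, and the IL-4 value was 0.24 without the array that stood apart. Of its other 3 detected probes, the next brightest gave 0.65, 0.59 and 0.08, and the others were near the detection limit. For the next brightest the genotypes overlapped unstimulated (lowest Nur77-KO and highest WT array both 6.69) and with IL-4 (6.75 against 7.12). Its IL-4 value was −0.10 without the array that stood apart. Both dimmer probes also overlapped unstimulated and with IL-4. LPS raised Igf2bp3 2.39-fold in WT (limma adjusted p = 1.04e-05) and 2.58-fold in Nur77-KO BMM (adjusted p = 4.57e-06), calls that median normalization lost (adjusted p = 0.193 and 0.33). IL-4 gave 0.38 (adjusted p = 0.255) and 0.16 (adjusted p = 0.811).

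Prickle2, the polarity gene, was dim, detected on 7 arrays. Unstimulated WT arrays read 5.18, 5.58 and 5.39, of which only the last was detected, and Nur77-KO arrays 6.18, 6.10 and 5.95, all detected, a difference of 0.70 (1.62-fold). With IL-4 it was undetected in WT (5.57, 5.19 and 5.41) and read 6.40, 6.39 and 6.18 in Nur77-KO, at least 1.75-fold higher. With LPS it was not detected on any array of either genotype, so no fold is given. In Nur77-KO BMM the fall with LPS was at least 1.35-fold (limma log2 difference −1.25, adjusted p = 7.74e-06). In WT, where 1 of the 6 arrays compared was detected, no fold is given (adjusted p = 0.0707, or 0.0433 without unstimulated WT replicate 1).

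Klra3, the Ly49 receptor, differed most without stimulation. Those arrays read 6.94, 6.78 and 7.26 in WT and 8.06, 7.97 and 8.07 in Nur77-KO, a difference of 1.04 (2.05-fold, SE 0.33). With LPS they read 6.57, 5.61 and 6.90 in WT and 7.73, 6.94 and 7.07 in Nur77-KO, a difference of 0.88 with a narrow gap. With IL-4 they read 7.05, 6.55 and 5.78 in WT and 7.39, 6.77 and 7.06 in Nur77-KO, a difference of 0.61 with overlap. Without the arrays that stand apart these values were 0.64 and 0.45. The second probe differed by 0.99 unstimulated, and with LPS and IL-4 it was not detected on any WT array. Ly49 genes are near-copies of one another, so which of them these probes measured is uncertain. The 5 tested natural killer and T cell genes had a mean between 5.77 and 6.42 on all arrays, with 1 of the 5 detected on every array of each group.

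The brighter Klra3 probe passed the test in no comparison, and LPS in Nur77-KO BMM came nearest. For the brighter probe LPS gave −0.63 in WT (limma adjusted p = 0.162) and −0.79 in Nur77-KO BMM (adjusted p = 0.0833), the latter passing without Nur77-KO LPS replicate 1 (−1.03, adjusted p = 0.0408) or WT LPS replicate 2 (−0.79, adjusted p = 0.0457). IL-4 gave −0.54 (adjusted p = 0.491) and −0.96 (adjusted p = 0.156). The second probe fell in Nur77-KO BMM under LPS (−0.73, adjusted p = 0.0493) and also under IL-4 (−1.12, adjusted p = 0.0283).

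Gpr162, the orphan receptor, fell with both stimuli and had a small genotype gap at rest. Unstimulated arrays read 8.52, 8.68 and 8.57 in WT and 8.88, 8.87 and 8.86 in Nur77-KO, a difference of 0.28 (1.22-fold, SE 0.30). LPS arrays read 5.77, 5.71 and 7.11 in WT and 7.18, 6.50 and 6.91 in Nur77-KO, a difference of 0.67 (1.59-fold), with overlap because of 1 high WT array. IL-4 arrays read 6.17, 6.29 and 5.82 in WT and 7.36, 6.72 and 6.75 in Nur77-KO, a difference of 0.85 (1.80-fold). Within the slide that held both genotypes with LPS the difference was −0.20. Its second probe differed by 0.55 unstimulated and was not detected on any stimulated array of either genotype.

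LPS lowered Gpr162 5.25-fold in WT (limma log2 difference −2.39, adjusted p = 6.96e-06) and 4.03-fold in Nur77-KO BMM (−2.01, adjusted p = 5.05e-05). IL-4 lowered it 5.63-fold in WT (−2.49, adjusted p = 5.98e-05) and 3.81-fold in Nur77-KO BMM (−1.93, adjusted p = 0.000833). The second probe, undetected on every stimulated array, has only bounds: it fell at least 1.17-fold in WT and 1.89-fold in Nur77-KO BMM with LPS, and at least 1.42-fold and 2.05-fold with IL-4 (adjusted p between 8e-06 and 0.00014). Smad3, a transducer of TGF-β signals, had the pattern most like Gpr162 (0.30).

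**Figure D3:**
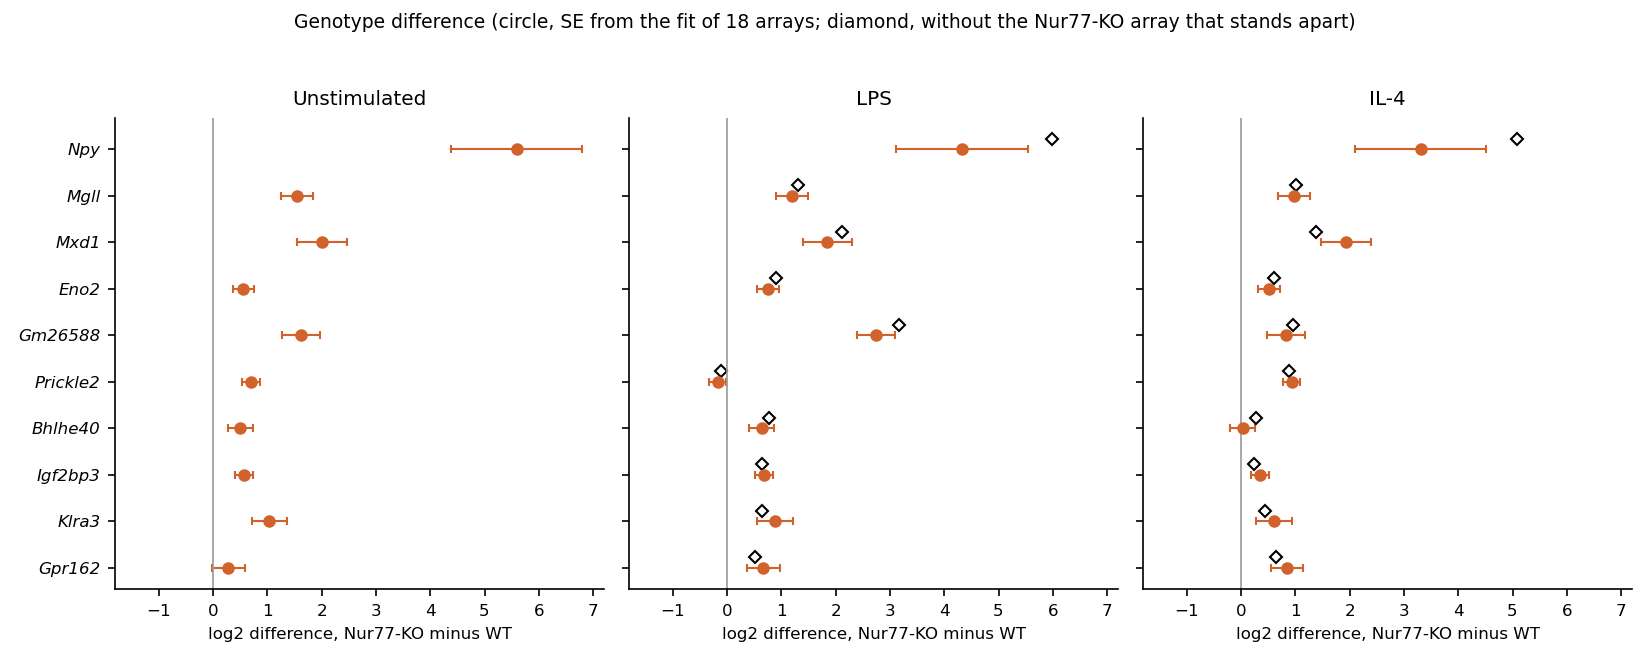
Nur77-KO minus WT difference (log2) of each gene in each state, with bars of 1 SE from the fit over all arrays and open diamonds for the difference without the array that stands apart. Values run from −0.17 (Prickle2 with LPS, below detection in both genotypes) to 5.59 (unstimulated Npy), and these are the values on which the genes were chosen.

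Across the 10 genes, LPS changed 6 in WT BMM, where 35.3% of all probes passed the same test. Mxd1, Eno2 and Igf2bp3 rose, and Gm26588, Bhlhe40 and Gpr162 fell. In Nur77-KO BMM 7 changed against 33.1% of all probes. The risers were again Mxd1, Eno2 and Igf2bp3, and Mgll, Prickle2, Bhlhe40 and Gpr162 fell. The medians of the 10 genes were −0.51 and −0.92, against −0.04 for all probes in both genotypes. IL-4 changed 2 of 10 in WT (5.03% of all probes) and 2 of 10 in Nur77-KO BMM (3.72%). In each case Bhlhe40 rose and Gpr162 fell, and the medians were 0.03 and −0.45, with −0.01 for all probes. With 10 genes these shares are coarse.

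**Figure D4:**
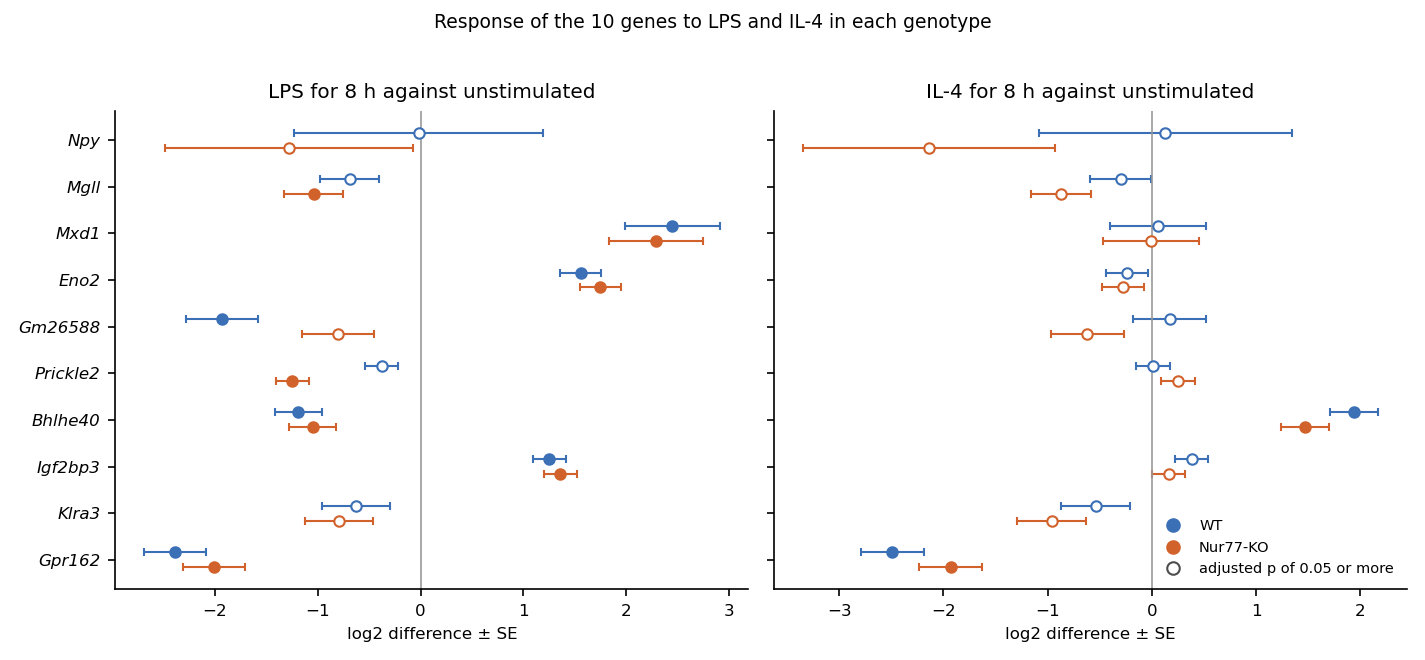
Stimulated minus unstimulated difference (log2) of each gene with LPS and IL-4 in WT and Nur77-KO BMM, with bars of 1 SE and filled points where limma's adjusted p was under 0.05. Bhlhe40 is at −1.19 and −1.05 with LPS and at 1.94 and 1.47 with IL-4, and Gpr162 is between −2.49 and −1.93 in all comparisons.

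The same arrays can be set side by side by inferred slide, which is again a description of the values that chose the genes. On slides 2 and 4, with 1 unstimulated array of each genotype on either slide, 10 of 10 genes were higher in Nur77-KO, Npy by 5.73 and 5.64 and Mgll by 1.74 and 1.52. On slide 6, the LPS pair had 8 of 10 higher (not Prickle2 and Gpr162). On slides 4 and 6 the IL-4 pairs had 9 of 10 higher (not Bhlhe40). Each pair sets 1 array against 1 array, and the share of all probes that were higher was not counted, so nothing more is read from these counts. Npy differed by only 0.05 within slide 4, whose Nur77-KO IL-4 array is the one that stood apart. No slide held LPS and unstimulated arrays of the same genotype, so there slide and LPS cannot be told apart within a slide.

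The rest of chromosome 6 was read for context. The choice had genes close to its edge: Bhlhe40 (second-largest difference 0.50) and Eno2 (0.56) were just inside the log2 threshold of 0.49, and Foxp1 and Txnrd3 (0.46 each) just outside. By their brightest probe, 19 of 632 chromosome 6 genes (3.01%) passed the thresholds in 2 or 3 states, against 178 of 11759 genes elsewhere (1.51%). The 10 genes are among these 19. Of the others, Gfpt1, the rate-limiting enzyme of hexosamine synthesis, was higher in Nur77-KO BMM by 2.22, 1.89 and 2.07, and Gdf3, a TGF-β family ligand, lower (−1.68, −1.47 and −1.67). These, named after their values were seen, had an adjusted p under 0.05 in all 3 states, where 0.243%, 0.204% and 0.0782% of all probes were called.

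**Figure D5:**
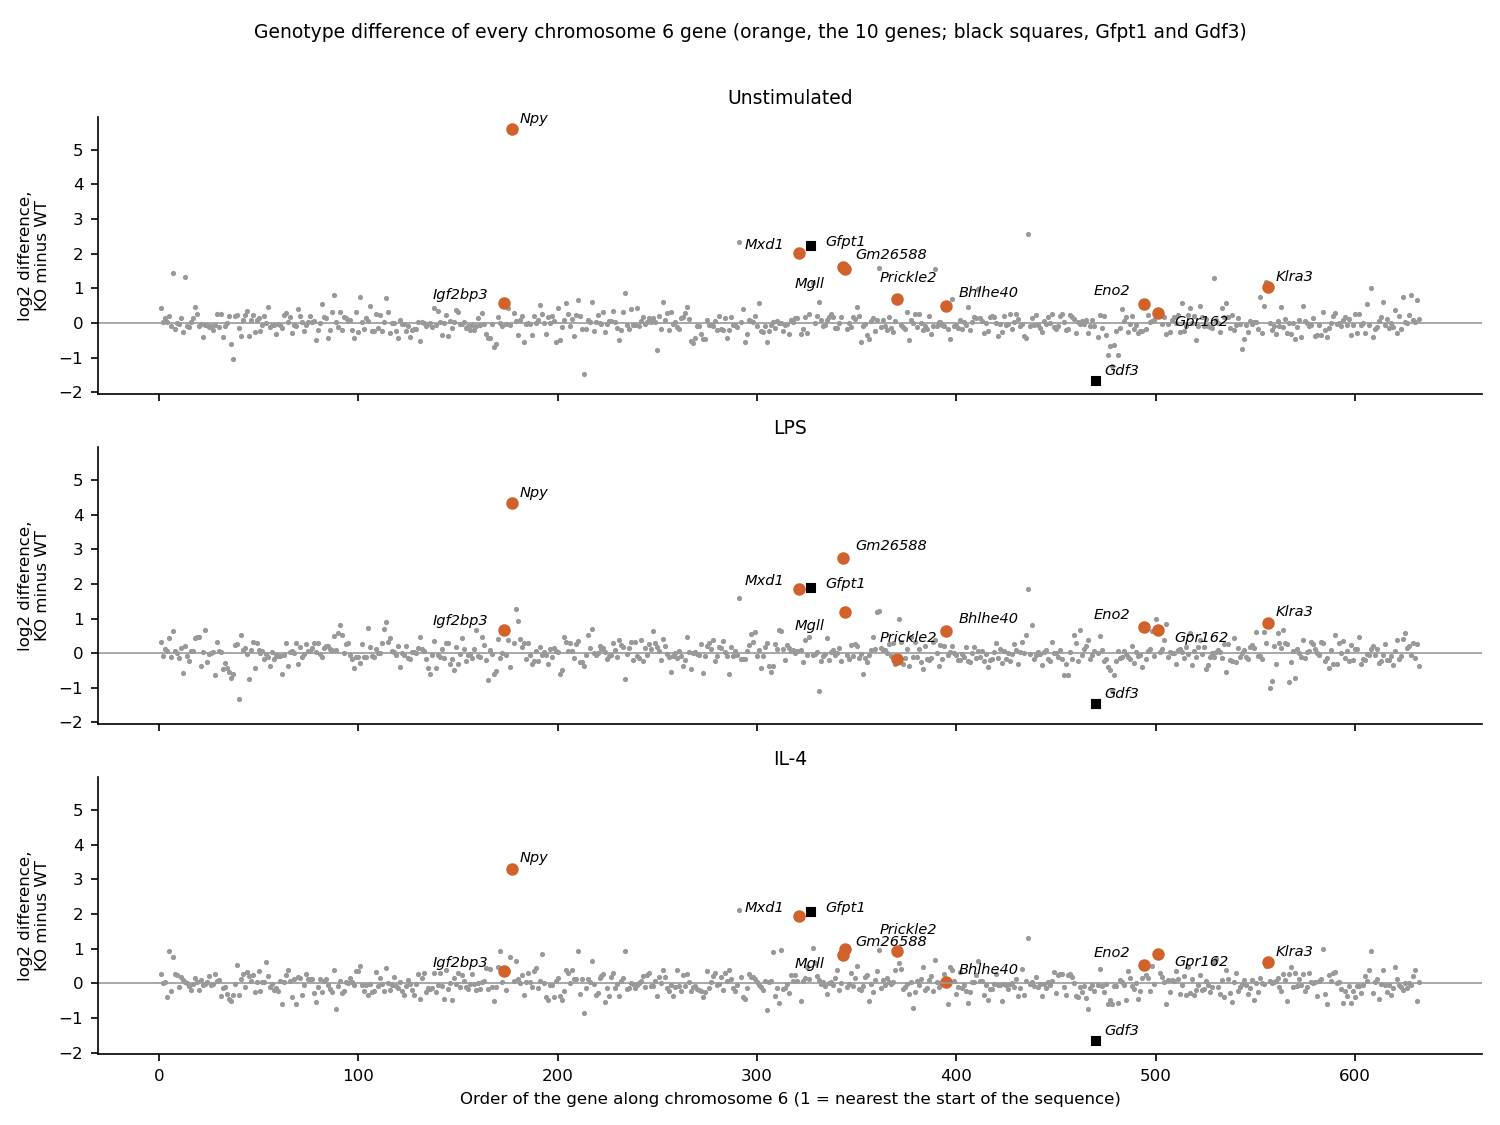
Nur77-KO minus WT difference (log2) of the 632 chromosome 6 genes in their order along the chromosome, for each state, with the 10 genes in orange and Gfpt1 and Gdf3 as black squares. The 10 genes lie above it except Prickle2 with LPS (−0.17).

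Most of the nearest genes on either side did not pass the thresholds of the choice. By their brightest probe, of 51 tested neighbours outside the 10 genes, 41 passed them in 0 states. A limma adjusted p under 0.05 was reached by 0 in any state, and an unadjusted one by 3, 7 and 6. Only 0.243%, 0.204% and 0.0782% of all probes were called by adjusted p, so 0 of 51 says little. With the intensities reprocessed, 1156, 1922 and 1107 of 23007 probes had an unadjusted p under 0.05. By that probe only P3h3, a collagen-modifying enzyme 698 bases from Gpr162, passed them in more than 1 state (0.21, 1.00 and 0.78). Over all 85 detected probes of the neighbours, 2 others did so, both dimmer probes of genes beside Mxd1 and named after their values were seen. A Tia1 probe was higher in Nur77-KO BMM by 2.03, 0.74 and 1.54, with a limma adjusted p of 0.000806 unstimulated and 0.0256 with IL-4, and of 0.365 with LPS. An Anxa4 probe was lower (−2.02, −1.73 and −2.10, adjusted p = 0.000818, 0.00441 and 0.00182). The brightest probes of these genes differed by 0.04, 0.08 and 0.07 for Tia1 and by 0.17, 0.39 and 0.16 for Anxa4. By the brightest probes the median neighbour differed by −0.01 unstimulated, 0.05 with LPS and 0.07 with IL-4. In these states 23, 28 and 37 of the 51 had a higher mean in Nur77-KO.

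Genes that work with the 10 were taken from lists of pathway partners. Of the 74 tested partners, 0 had a limma adjusted p under 0.05 between the genotypes in any state, and 4, 9 and 4 had an unadjusted p under 0.05. With the intensities reprocessed, 1156, 1922 and 1107 of 23007 probes had such an unadjusted p. Only 0.243%, 0.204% and 0.0782% of all probes were called by adjusted p, so 0 of 74 says little. Of the same 74, LPS changed 29 in WT and 27 in Nur77-KO BMM, where 35.3% and 33.1% of all probes were called, and IL-4 changed 4 and 5, where 5.03% and 3.72% were, so the counts by list below are read against those shares. Of 13 genes of the neuropeptide Y system 5 were detected, and 1 responded, the protease gene Ctsl in WT BMM with LPS (at least 2.24-fold lower, limma adjusted p = 0.00119). Of 10 tested endocannabinoid and monoacylglycerol genes, LPS raised 4 and lowered 4 in WT, and raised 1 and lowered 4 in Nur77-KO BMM. Cnr2, the cannabinoid receptor of immune cells, fell at least 16.6-fold in WT and 17.9-fold in Nur77-KO BMM. Daglb, which makes the lipid that Mgll breaks down, fell 6.42-fold and 4.15-fold, and Ptgs2, which makes prostaglandins from arachidonic acid, rose at least 8.96-fold and 8.49-fold. IL-4 changed 1 of the 10, the lipase gene Abhd12 in WT BMM (−0.72, adjusted p = 0.0198).

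Around Mxd1, 10 genes of the MYC, MAX and MXD network were tested, and LPS raised 2 and lowered 2 in each genotype. Max, the shared partner, rose 3.97-fold in WT and 4.49-fold in Nur77-KO BMM, and Mycl 3.75-fold and 5.04-fold. The MYC antagonists Mxd4 (14.0-fold and 12-fold) and Mxi1 (at least 1.76-fold and 1.91-fold) fell. In IL-4 Mlxip rose in Nur77-KO BMM (0.78, limma adjusted p = 0.0184). Around Bhlhe40, 4 of 9 tested clock genes fell with LPS in each genotype and 0 rose. Among those that fell were Dbp (24.4-fold and 15.9-fold) and Rora (3.77-fold and 2.88-fold). By limma, IL-4 changed 0 of the 9 in either genotype. An unadjusted p under 0.05 was reached by 1 in WT and 3 in Nur77-KO BMM (3682 and 3117 of 23007 probes).

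Of 8 enolase and lower glycolysis genes, 1 changed with LPS in each genotype, the muscle enolase Eno3, which passed the test as lower (limma adjusted p = 0.00927 in WT and 0.0449 in Nur77-KO BMM) but had no detected LPS array. Among 6 genes of the Igf2 group, LPS lowered 3 in WT and 4 in Nur77-KO BMM, with Igf1r at least 3.04-fold lower in WT and 4.26-fold lower in Nur77-KO BMM, and IL-4 raised Igf1 (0.64, adjusted p = 0.04) and lowered Igf2 (at least 1.17-fold, adjusted p = 0.0382) in Nur77-KO BMM. Of 6 planar polarity genes only Prickle1 passed the test, as higher with LPS in WT (adjusted p = 0.0148), where it was detected on 1 of 3 arrays.

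Around Klra3, LPS raised 3 of 12 tested receptors of the natural killer gene complex in each genotype, Klra2 (at least 3.75-fold and 2.06-fold), Klri1 (at least 2.18-fold and 3.65-fold) and Clec2d (1.56-fold and 1.47-fold). Klra17 was detected on 2 unstimulated Nur77-KO arrays and on 0 stimulated ones, and no fold is given for it, although it passed the test in Nur77-KO BMM with LPS (limma adjusted p = 0.0071) and IL-4 (adjusted p = 0.0237). Around Gpr162, LPS lowered 4 of 8 tested neighbours in WT and 5 in Nur77-KO BMM, and IL-4 lowered 3 and 1. P3h3 fell with LPS at least 2.32-fold in WT and by a factor of 2.25 in Nur77-KO BMM, and Ptms fell in all 4 comparisons (log2 differences −0.93 to −0.61).

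Among the 10 genes themselves, the pairs with the most similar patterns over the 18 arrays were Eno2 with Igf2bp3 (root mean square difference 0.44 in SD units) and Mxd1 with Igf2bp3 (0.50). Mgll was nearest to Klra3 (0.52) and then to its overlapping neighbour Gm26588 (0.60). All of these arrays are shared and the genes were chosen for a common direction, so the values are a description.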

How the data were processed

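The arrays were Illumina MouseWG-6 v2 bead arrays of 18 samples in 6 groups. Their running sample numbers, in blocks of 6, were taken as 6 slides, since no label names a slide. The authors' deposited tables hold, for 45281 probes, the summarised bead intensity with its detection p-value, exported with GenomeStudio 2011.1, and normalized log2 values, which the authors made by background correction and quantile normalization with limma 3.10.2 in R 2.14.0. The deposited log2 values were used here. Reprocessing the intensities with limma's neqc function (offset 16) gave values within 0.0588 of them.

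Of the probes, 34885 have 1 gene symbol, 18 have several and 10378 are not listed in the annotation table. The 23007 probes whose detection p-value fell under 0.05 on 1 array or more entered the fit, whether or not they had a symbol. Each array detected 11829 to 16283 probes, with a lowest detected log2 value of 5.30 to 6.04, and the number of arrays limits the precision. One linear model with the 6 group means, over all 18 arrays, was fitted with limma 3.58.1 in R 4.3.3 (12 residual and 4.35 prior degrees of freedom), and two-sided p-values received the Benjamini-Hochberg adjustment over all 23007 probes within each comparison. A response was called at an adjusted p under 0.05. The fit was tested on simulated data.

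The genes and the lists of partners were chosen with earlier results of these data known. Named were all 10 genes, their direct neighbours and list members past the thresholds, and the genes of the most similar pattern, by root mean square difference of values in SD units. Alternatives covered background correction, normalization, the detection filter, the probe standing for a gene, the groups fitted, slide and replicate blocks, the variance prior, the study's thresholds, and arrays left out. Values of IL-4 responses within slides were added after seeing the data.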

Additional observations from a re-analysis of the deposited data

How the results depend on the processing

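The median genotype difference of the 10 genes stayed above 0 under all alternatives tried. It moved to 0.50 unstimulated and 0.34 with IL-4 when no background correction was applied, and to 1.4 unstimulated under median normalization, which shifted the median of all probes by 0.41. Against that shift the 10 genes kept their sign without stimulation. The cause was not tested. IL-4 responses numbered 1 in WT and 1 in Nur77-KO BMM under median normalization in place of 2 each, and 4 in Nur77-KO BMM without background correction, when only the groups compared were fitted, and with the study's thresholds. Leaving out 1 array at a time gave medians of 0.83 to 0.93 unstimulated, 0.67 to 1.14 with LPS and 0.66 to 0.97 with IL-4, and 6 to 7 and 7 to 8 LPS responses and 2 to 2 and 2 to 3 IL-4 responses in WT and Nur77-KO BMM. No call of the 10 genes' responses was turned in direction by any alternative.

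Same-numbered arrays correlated at a mean r of 0.0544 (−0.25 to 0.451) in their deviations from group means and arrays of different numbers at −0.0208, and 11 of 18 arrays correlated best with an array of their own number, a hint of pairing from the data. Because some same-numbered arrays correlated below 0 and the labels state no pairing, the numbers were not used as pairs. With the replicate number as a block the medians were 0.87, 0.82 and 0.84 and the counts of responses 6, 7, 2 and 2, as without it.

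Over all probes, genotype calls numbered 56, 47 and 18 in the 3 states, and 181, 393 and 138 without the arrays that stand apart. Median normalization gave 13 with LPS and 6 with IL-4, and 3231 LPS responses in WT BMM (8117 otherwise) and 101 and 166 IL-4 responses (1158 and 856). With the slide as a block there were 5 genotype calls with LPS and 499 IL-4 responses in Nur77-KO BMM, and with only the compared groups fitted 455 in WT. With 1 probe per gene 4944 and 4698 LPS responses were called among 12417 probes. The study's thresholds gave 2972 and 2452 IL-4 responses. With 1 array left out, genotype calls ranged over 22 to 99, 29 to 238 and 7 to 46. Without stimulation 39 of 56 calls were higher in Nur77-KO, and 80 of 82 under median normalization. Probes near the lowest detected signal, here Npy in WT, Mxd1 in WT without LPS, Gm26588 in WT with LPS, and Prickle2 with LPS and in WT with IL-4, have at most bounds on their folds.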
